A study of Homo sapiens with 62 samples.

Results

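A2058 is a human melanoma line whose parental cells (WT) carry gains of the long arm of chromosome 1 (1q), of 7p and of 8q, per the labels. Described here are 2 clones of this line from which the 1q gain was removed with ReDACT-CO, a chromosome engineering method. Each clone gave 2 mRNA libraries, and these 4 libraries of the group A2058 1q-loss were set against the 4 libraries of A2058 WT, by group and line as labelled, out of 62 libraries in the study. Each clone grew from a single cell, so the group holds 2 founders, the libraries of 1 clone are not independent, and WT cells were not cloned. For comparison, the same line gave 6 libraries of 7p-loss (3 clones) and 4 of 8q-loss (2 clones), and 1q-loss clones came from the gastric line AGS (5 libraries, against 1 WT library and 2 labelled TK+) and from the breast epithelial line MCF10A without hRas (8 libraries of 4 clones, against 2 WT).

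Melanocytes are the pigment cells from which melanoma arises. Their identity is held by the transcription factors SOX10 and MITF, which switch on the enzymes that make melanin and the proteins that build the pigment granule. Melanoma cells can leave this state for a dedifferentiated, mesenchymal one, known for WNT5A, AXL and matrix genes. Inflammatory cytokines such as IL6 and the CXCL chemokines are classic targets of NF-kB, and interferon-stimulated genes are switched on by factors such as STAT2 and IRF9 at a promoter element called ISRE.

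The 8 libraries held 19595543 to 27015317 counts. Levels are given as CPM, the usual depth-scaled count of a gene relative to its library's TMM-adjusted total. Pearson correlations of log2 CPM ran from 0.987 to 0.992 among WT libraries, from 0.976 to 0.981 between the clones, and from 0.870 to 0.915 between clone and WT libraries. The 1q-loss libraries were closest in rank to A2058 WT (Spearman 0.930 to 0.953), ahead of MCF10A (0.844 to 0.853), AGS and HCT116 WT libraries (0.734 to 0.779). Genes were tested with the quasi-likelihood test of edgeR, and a gene was called, or is said to have risen or fallen, at a Benjamini-Hochberg adjusted p under 0.05 over all 15387 genes tested. Fold changes are log2 values, 1q-loss minus WT, with their standard error (SE). Nothing in the labels says whether libraries of 1 group came from separate cultures, so p-values measure the spread between these libraries, which may be technical.

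To show the elements by which these 3 programmes are known, 150 bases upstream of the start of 6 genes are printed, 5′ to 3′ on the gene's strand, from RefSeq (GRCh38.p14). Capitals mark each match on either strand to the letters searched. The M-box of MITF (TCATGTG) is shown for tyrosinase, TYR (chr11:89177725-89177874, plus strand), and tyrosinase-related protein 1, TYRP1 (chr9:12693235-12693384, plus strand), and an NF-kB element (GGGNNTTTCC) for the chemokine CXCL1 (chr4:73869243-73869392, plus strand) and the cytokine IL6 (chr7:22727050-22727199, plus strand). The ISRE (GAAANNGAAA) is shown for 2 antiviral genes, IFIT1 (chr10:89392473-89392622, plus strand) and BST2 (chr19:17405631-17405780, minus strand).
TYR: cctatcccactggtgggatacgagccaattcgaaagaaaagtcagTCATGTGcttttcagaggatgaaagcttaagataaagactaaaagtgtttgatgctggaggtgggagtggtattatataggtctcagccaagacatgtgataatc
TYRP1: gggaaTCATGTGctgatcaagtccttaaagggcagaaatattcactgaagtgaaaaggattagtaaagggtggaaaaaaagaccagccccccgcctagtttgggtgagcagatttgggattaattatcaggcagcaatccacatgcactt
CXCL1: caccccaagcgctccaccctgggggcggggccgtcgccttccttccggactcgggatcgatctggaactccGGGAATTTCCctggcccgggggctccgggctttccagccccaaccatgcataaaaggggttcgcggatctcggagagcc
IL6: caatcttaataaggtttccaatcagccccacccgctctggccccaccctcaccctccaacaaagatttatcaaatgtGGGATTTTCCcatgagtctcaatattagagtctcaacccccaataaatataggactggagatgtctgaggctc
IFIT1: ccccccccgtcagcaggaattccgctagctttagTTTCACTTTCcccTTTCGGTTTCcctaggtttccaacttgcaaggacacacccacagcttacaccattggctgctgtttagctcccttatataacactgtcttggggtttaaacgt
BST2: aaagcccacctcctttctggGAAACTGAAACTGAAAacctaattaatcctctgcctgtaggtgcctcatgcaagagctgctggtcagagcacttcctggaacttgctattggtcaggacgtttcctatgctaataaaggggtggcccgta

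Within 250 bases upstream, on either strand, the M-box letters were in 6 of the 18 melanocyte genes that have a RefSeq promoter (33.3%), against 2.37% of 10701 tested genes with a promoter. The NF-kB letters were in 8 of 13 inflammatory cytokine genes (61.5%, against 2.59%), and the ISRE letters in 18 of 27 interferon-stimulated genes (66.7%, against 3.44%). Of all 27305 genes with a promoter, these letters were in 3.11%, 2.12% and 3.71%. The letters of AP-1 (TGANTCA) were in 3 of the 13 cytokine genes, against 6.46% of tested genes. A match is a description of the sequence, and no binding was measured.

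Nearly every second gene differed between the 2 groups. Of 15387 genes tested, 7638 were called (49.6%), of which 3898 rose (25.3%) and 3740 fell (24.3%). Outside 1q, 14710 genes were tested, of which 3831 rose (26%) and 3336 fell (22.7%), together 7167 (48.7%). The median fold change outside 1q was 0.02, and the median size of a change in either direction was 0.33. Changes of at least 1 on the log2 scale were called for 1346 genes upwards and 1248 downwards, and changes of at least 5 for 207 upwards and 62 downwards. Gene lists are described by their counts and medians, to be read against these shares, and were not tested as lists.

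The melanocyte programme was low in both clones. Of 25 melanocyte lineage genes, all tested, 23 fell, 1 rose and 1 was not called, with a median of -3.53, and 21 did not overlap between the groups (47.5% of all genes tested did not). Read counts of a cell population cannot tell fewer cells of a type from less RNA per cell. The 2 regulators fell: MITF (chr3:69739435-69968337) had 210.1, 177, 157 and 137 CPM in the WT libraries, 23.8 and 23.5 in clone 1, and 13.1 and 8.28 in clone 2. SOX10 (chr22:37970686-37987422) had 629.8, 652, 606 and 467 CPM in the WT libraries, 80.4 and 81.6 in clone 1, and 28 and 24.8 in clone 2. Every 1q-loss library lay below every WT library for both genes, and clone 2 lay below clone 1. The fold changes were -3.32 (SE 0.30, adjusted p = 9.0e-06) for MITF and -3.46 (SE 0.39, adjusted p = 4.0e-05) for SOX10, whose tabled span overlaps that of POLR2F.

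Of the genes that MITF and SOX10 are known to switch on, 3 with larger fold changes than these regulators are given here, and others of the list had smaller ones. TYR (chr11:89177452-89295759), the first enzyme of melanin synthesis, had 107, 157, 96 and 126 CPM in the WT libraries, 0.76 and 0.866 in clone 1, and 0.0926 and 0 in clone 2. PMEL (chr12:55954105-55973317), which forms the fibrils of the pigment granule, had 1716, 1099.6, 773 and 1712 CPM in the WT libraries, 23.1 and 25.5 in clone 1, and 10.7 and 9.79 in clone 2. DCT (chr13:94436808-94479682), a later enzyme of the same synthesis, had 1712, 1631, 824 and 1606 CPM in the WT libraries, 69.2 and 119.9 in clone 1, and 7.96 and 5.65 in clone 2. All 3 were well expressed in every WT library, lower in both libraries of clone 1 and lowest in clone 2. Fold changes were -8.22 (SE 0.43, adjusted p = 2.5e-07) for TYR, -6.27 (SE 0.41, adjusted p = 1.1e-06) for PMEL and -4.84 (SE 0.88, adjusted p = 0.001) for DCT. PMEL and CDK2 (-1.99) overlap in the tables, and whether counting used the strand is not given in the sources used here. DCT lies on 13q, whose genes were lower in clone 2 as a whole.

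TRPM1, an ion channel of melanocytes, had 588 counts in the WT libraries and 1 in the 1q-loss libraries together, a ratio of 599 (95% counting interval 107 to 23649). OCA2, a transporter of the pigment granule, fell (-5.55), as did TYRP1 (-4.43), MLANA, the melanoma antigen MART-1 (-3.82), SLC45A2 (-4.30) and SLC24A5 (-4.66). So did the growth factor receptors of the lineage, KIT (-4.20), EDNRB (-2.92) and ERBB3 (-3.16), and S100B (-3.53), a marker of neural crest cells. The smallest falls were those of PAX3 (-0.84) and MC1R (-0.77). RAB27A, which tethers the pigment granule to the cell cortex, rose (0.34, SE 0.11, adjusted p = 0.022), and TFAP2A had 0.14 (adjusted p = 0.36). Of 21 other settings tried, MC1R was not called under 8 and RAB27A under 9, among them WT replicates 1 and 2 only (-0.33 and 0.23), without WT replicate 3 (-0.73 and 0.29) or 4 (-0.54 and 0.31), and the libraries of each clone summed (-0.76 and 0.35). Nor was MC1R called without either library of clone 1 (-0.67 and -0.74), or RAB27A without either library of clone 2 (0.29 and 0.30) or without both (0.18).

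Other A2058 clones did not have the WT level of every pigment gene either. Against 7p-loss 18 of the 25 genes were lower in the 1q-loss clones and 1 higher, and against 8q-loss 19 were lower and 1 higher (39.4% and 38.6% of all 16318 genes were called in these comparisons, and 4168 genes against 7p-loss without clone 2, in place of 6424). SOX10 had 579 to 688 CPM in 7p-loss and 407 to 696 CPM in 8q-loss libraries, and 1q-loss was lower than both (-3.57, adjusted p = 1.3e-07, and -3.36, adjusted p = 5.4e-07). TYR ran from 0.0966 to 1061 CPM in 7p-loss and from 2.08 to 6.6 CPM in 8q-loss libraries, so 1q-loss was called against 7p-loss (-9.38, adjusted p = 0.0042) and not against 8q-loss (-3.41, adjusted p = 0.28). MLANA was called against neither (-0.86, adjusted p = 0.055, and -0.63, adjusted p = 0.19).

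**Figure D1:**
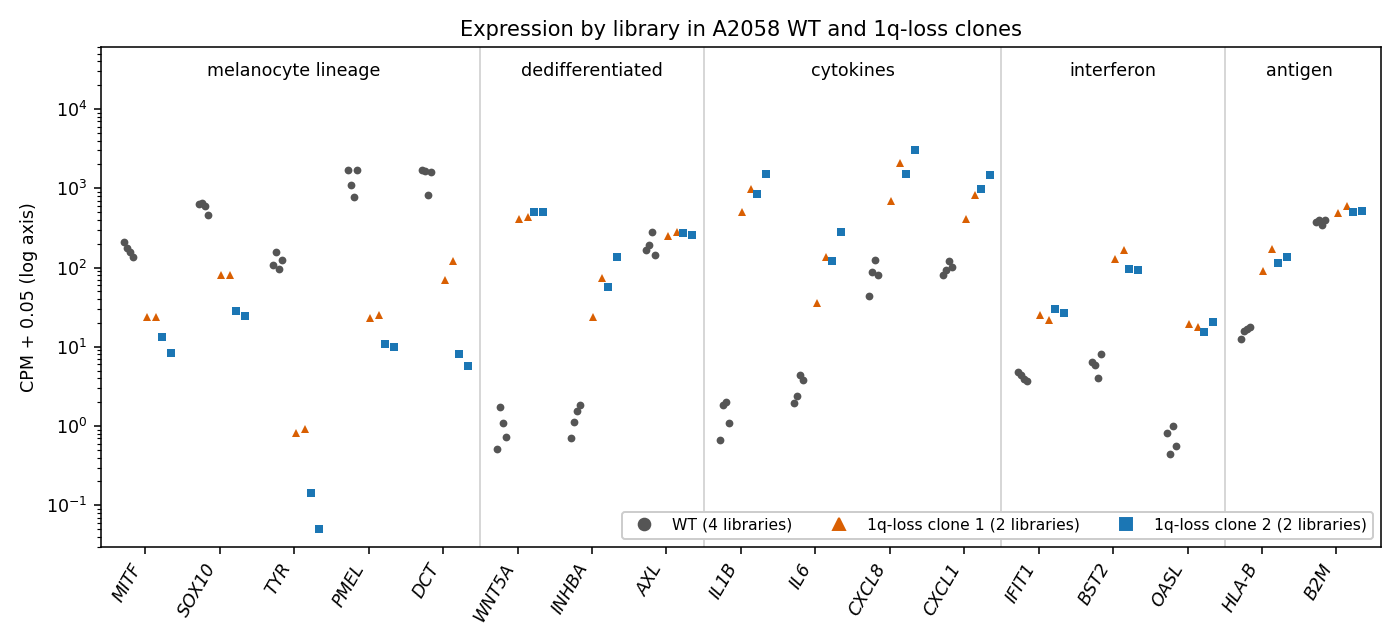
CPM plus 0.05 on a log axis for 17 genes in the 4 WT libraries (grey circles), the 2 libraries of clone 1 (orange triangles) and the 2 of clone 2 (blue squares), 1 point per library. The 5 melanocyte genes are lower in every 1q-loss library than in any WT library, and the cytokine genes are higher in every 1q-loss library, while AXL overlaps.

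Genes of the dedifferentiated state rose for the greater part. Of 27 listed, 25 were tested, of which 18 rose and 2 fell, with a median of 1.34. WNT5A (chr3:55465715-55490539), a ligand of noncanonical WNT signalling, had 0.456, 1.69, 1.05 and 0.673 CPM in the WT libraries, 406 and 437 in clone 1, and 502 and 502 in clone 2. INHBA, a subunit of activin A, had 0.659, 1.08, 1.51 and 1.81 CPM in the WT libraries, 23.9 and 74.6 in clone 1, and 56.8 and 137 in clone 2. Neither gene overlapped between groups, and the fold changes were 8.87 (SE 0.24, adjusted p = 5.6e-09) and 5.83 (SE 0.56, adjusted p = 1.4e-05). WNT5A overlaps its antisense gene in the tables.

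PDGFRB, a receptor of mesenchymal cells, rose (3.20) and was higher in clone 1 (12.3 and 7.99 CPM) than in clone 2 (2.08 and 2.37 CPM). Smaller rises were those of LOXL2 (2.70), a collagen cross-linking enzyme, NT5E (2.33), SOX9 (1.74), CD44 (1.34) and JUN (0.99). With 7p-loss and 8q-loss libraries as further controls SOX9 (0.28) and JUN (0.76) were not called, and neither was when all 18 A2058 libraries shared 1 spread (adjusted p = 0.38 and 0.13). The 2 that fell are genes of the neural crest-like state: NGFR, the low-affinity nerve growth factor receptor (-2.85, SE 0.40, adjusted p = 0.00017), and SOX2 (-2.76, SE 0.48, adjusted p = 0.00072). AXL, the receptor kinase most often used to mark this state, had 166, 192, 279 and 145 CPM in the WT libraries, 253 and 279 in clone 1, and 269 and 255 in clone 2. Its groups overlapped and it was not called (0.43, SE 0.17, adjusted p = 0.052). FOSL1 (0.29), TEAD4 (-0.13), TNC (0.38) and LOX (-0.21) were not called either. AXL and TNC were called without WT replicate 3 (0.65 and 0.58), by DESeq2 (0.43 and 0.38) and without a filter on low counts (0.43 and 0.38), and TNC without clone 2 replicate 2 (0.46). With WT replicates 1 and 2 only (0.56 and 0.53) and with a replicate block (0.56 and 0.52) both were called too. FOSL1 was called without WT replicate 4 (0.38), without clone 1 replicate 1 (0.38) and with a replicate block (0.41).

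Most of the inflammatory cytokine genes tested rose. Of 25 genes listed, 2 lie on 1q and 18 of the others were tested, of which 15 rose and none fell, with a median of 3.51. IL1B (chr2:112829751-112836903), interleukin 1 beta, had 0.609, 1.78, 1.97 and 1.05 CPM in the WT libraries, 497 and 981 in clone 1, and 842 and 1515 in clone 2. IL6 (chr7:22725884-22732002) had 1.93, 2.34, 4.36 and 3.74 CPM in the WT libraries, 35.5 and 137 in clone 1, and 121 and 277 in clone 2. CXCL8 (chr4:73740506-73743716), the chemokine interleukin 8, had 43.9, 88.6, 123 and 81.2 CPM in the WT libraries, 696 and 2056 in clone 1, and 1504 and 3031 in clone 2. Even the lowest 1q-loss library lay above the highest WT library. The library numbered 2 was above the library numbered 1 in both clones for these 3 genes, and WT replicate 2 was also above WT replicate 1. The fold changes were 9.45 (SE 0.45, adjusted p = 1.5e-07), 5.52 (SE 0.60, adjusted p = 3.2e-05) and 4.43 (SE 0.46, adjusted p = 2.3e-05).

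CSF3, which drives neutrophil production, had 3 counts in the 4 WT libraries together and 54.8 and 137 CPM in clone 1 and 139 and 282 CPM in clone 2. The ratio of the groups was 4748 (95% counting interval 1625 to 23022). IL1A (7.26, SE 0.60, adjusted p = 4.6e-06), which lies beside IL1B, and CCL5 (7.73, SE 0.40, adjusted p = 2.5e-07), which attracts T cells, also rose. The CXC chemokines CXCL1 (3.21), CXCL2 (3.82) and CXCL3 (4.03), and IL11 (3.94) and LIF (2.46) of the IL6 family rose in both clones. The NF-kB inhibitors NFKBIA (0.73) and TNFAIP3 (0.59) rose less, and TNFAIP3 was not called without any 1 of 5 libraries (0.48 without clone 2 replicate 2). CCL2 (-0.32), CCL20 (0.12) and BIRC3 (0.05) were not called. No cytokine gene of the list was called between the clones. Only 4.84% of all 15387 genes were, so this does not set the list apart.

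Cytokine genes stood above both other kinds of A2058 clone. The 1q-loss libraries were higher than 7p-loss for 14 of the 18 genes and higher than 8q-loss for 14. IL1B had 0.0886 to 46.4 CPM in 7p-loss and 0.973 to 8.19 CPM in 8q-loss libraries, and CXCL8 had 51.4 to 405 CPM and 57 to 199 CPM. Both ranges lay below every 1q-loss library of the same gene. The change was also larger in A2058 than in the 1q-loss clones of AGS for 10 of the 18 genes and larger than in MCF10A for 11, by the interaction test (23.3% and 15.1% of all 19717 genes were called there).

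Most interferon-stimulated genes rose. Of 35 genes, all tested, 27 rose and none fell, with a median of 1.38. IFI27, a mitochondrial interferon-induced protein, had 0.152, 0.173, 0.0459 and 0.168 CPM in the WT libraries, 11.4 and 52.2 in clone 1, and 4.21 and 14.8 in clone 2. BST2 (tetherin), which holds virus particles on the cell surface, had 6.34, 5.89, 4.04 and 8.03 CPM in the WT libraries, 127 and 165 in clone 1, and 96.5 and 94.3 in clone 2. IFIT1, which binds viral RNA, had 4.82, 4.42, 3.85 and 3.62 CPM in the WT libraries, 24.9 and 21.5 in clone 1, and 29.6 and 26.5 in clone 2. IFI27 differed several-fold among the 1q-loss libraries and BST2 was lower in both libraries of clone 2 than in those of clone 1, and none of the 3 overlapped with WT. The fold changes were 7.19 (SE 0.95, adjusted p = 0.00012), 4.31 (SE 0.24, adjusted p = 3.7e-07) and 2.62 (SE 0.14, adjusted p = 2.8e-07).

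XAF1 (6.75), the oligoadenylate synthetase family members OAS2 (5.23) and OASL (4.79), ISG15 (1.97), MX1 (1.62) and IFIT2 (3.04) and IFIT3 (2.21) rose in both clones. Of the regulators of the pathway, the transcription factors STAT2 (0.16) and IRF9 (0.14) and the feedback protease USP18 (-0.23) were not called. Without clone 1, STAT2 was called (0.33). IRF7, which is itself interferon-induced, rose (1.38). Against 7p-loss 24 of the 35 genes were higher, and against 8q-loss 20 were higher and 1 lower. The change exceeded that in AGS for 30 of 35 genes and that in MCF10A for 10.

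Of 23 antigen presentation genes, 16 rose and 1 fell, with a median of 0.58. HLA-B, a class I molecule, had 12.6, 15.6, 16.9 and 17.9 CPM in the WT libraries, 90.1 and 174 in clone 1, and 114 and 134 in clone 2, and its change was 3.02 (SE 0.20, adjusted p = 9.8e-07). HLA-B and HLA-C (0.88) overlap in the tables and are similar in sequence, so reads may be split between them. HLA-F (1.20), the light chain B2M (0.48), the peptide transporter TAP1 (0.57) and the immunoproteasome subunit PSMB9 (1.43) rose. In the tables PSMB9 overlaps TAP1 and PSMB8. HLA-E had 0.04 (adjusted p = 0.71), and the class I regulator NLRC5 rose (0.44), though it was not called without clone 2 (0.34) or with WT replicates 3 and 4 only (0.35).

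Of the 23 antigen presentation genes, 3 differed between the clones, all higher in clone 2 (4.84% of all genes differed, and 1.92% were higher). Among these 3 were HLA-DRA and HLA-DRB1 of class II. HLA-DRA had 0.406, 1.21, 0.871 and 0.252 CPM in the WT libraries, 0.475 and 0.529 in clone 1, and 12 and 9.64 in clone 2, and HLA-DRB1 had 0.456, 1.08, 0.642 and 0.799 CPM in the WT libraries, 0.332 and 0.481 in clone 1, and 8.29 and 6.51 in clone 2. For HLA-DRA clone 1 lay within the WT range, for HLA-DRB1 at its lower edge, and clone 2 lay above WT for both, with clone 2 minus clone 1 at 4.41 (SE 0.50, adjusted p = 0.00044) for HLA-DRA and 4.17 (SE 0.40, adjusted p = 0.00015) for HLA-DRB1. Both were called higher in the group comparison (3.04 and 2.38), and without clone 2 they were at -0.45 and -0.88 and not called. CIITA, the master regulator of class II genes, had 0.05 (adjusted p = 0.87) and was not called between the clones (0.24). HLA-DMB fell (-1.67).

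**Figure D2:**
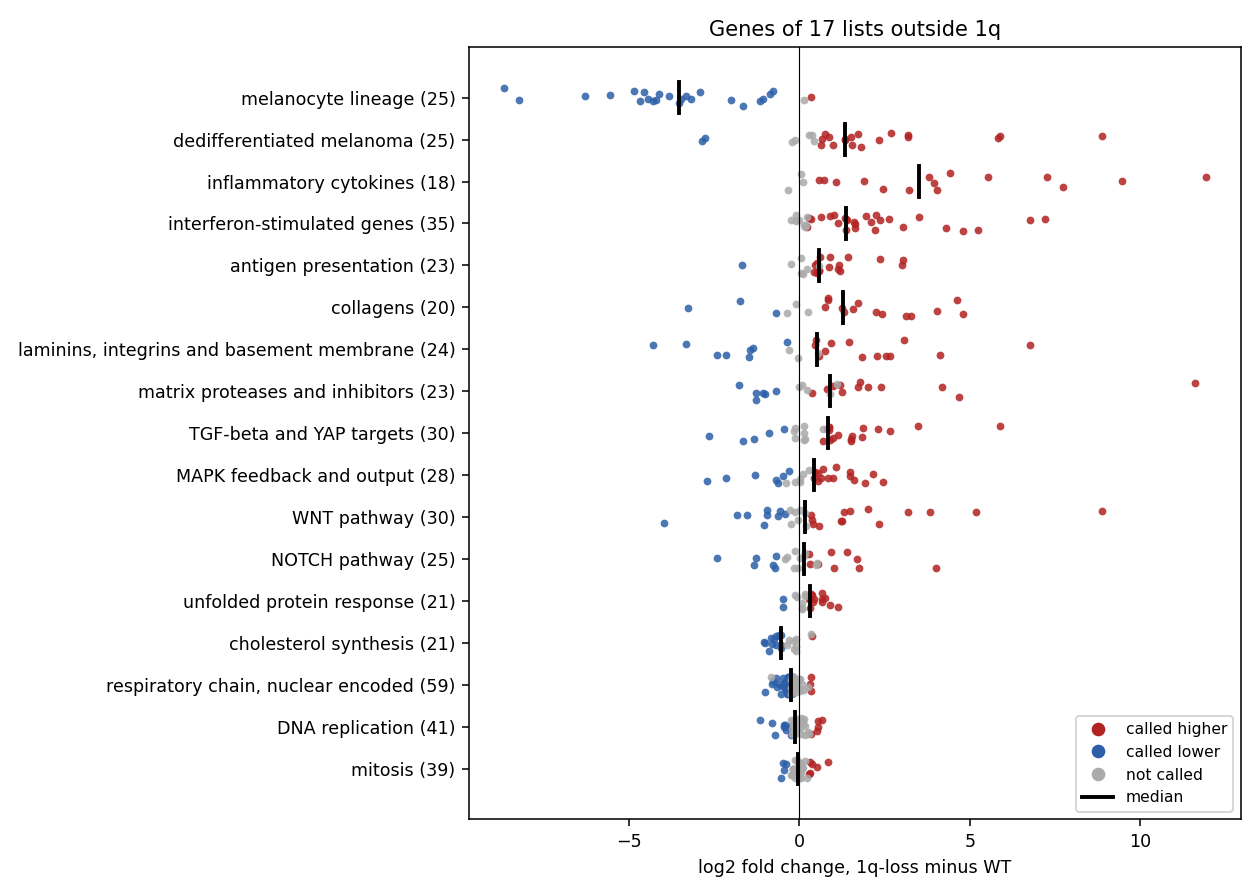
Log2 fold change (1q-loss minus WT) of each tested gene outside 1q in 17 lists, 1 point per gene, red where called higher, blue where called lower and grey where not called, with the list median as a black bar. The melanocyte list lies to the left (median -3.53) and the cytokine list to the right (median 3.51), while the replication and mitosis lists lie around 0.

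Collagen genes rose for the greater part, while integrins and secreted proteases changed in both directions. Of 20 collagen genes tested, 14 rose and 3 fell, with a median of 1.29. COL6A2 had 14.8, 13.8, 12.5 and 18 CPM in the WT libraries, 341 and 384 in clone 1, and 434 and 479.99 in clone 2. COL1A1, the main chain of fibrillar collagen, had 15.1, 16.1, 17.2 and 22 CPM in the WT libraries, 107 and 119 in clone 1, and 245 and 210.3 in clone 2. Both were above WT in all 4 libraries and COL1A1 was higher in clone 2 than in clone 1 (1.01, SE 0.15, adjusted p = 0.0025). COL4A5 (4.62) and COL12A1 (4.05) rose too, while COL9A3, a cartilage-type collagen, fell from 265 ± 44.4 CPM (SD, n = 4) to 27.9 ± 13.6 CPM (SD, n = 4), a change of -3.25, SE 0.31, adjusted p = 1.3e-05, and COL3A1 fell by 1.73. COL3A1 was not called with WT replicates 1 and 2 only (-1.45), and with 7p-loss and 8q-loss libraries as further controls it was at -0.000475.

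Among 24 laminin, integrin and basement membrane genes outside 1q, 13 rose and 8 fell, with a median of 0.53. The collagen receptor ITGA11 had 0.71, 1.26, 1.93 and 1.3 CPM in the WT libraries, 101 and 145 in clone 1, and 166 and 159.9 in clone 2, a change of 6.77 (SE 0.24, adjusted p = 3.6e-08). The collagen receptors ITGA1 (2.55) and ITGA2 (3.06), the laminin receptor ITGA3 (2.27) and the linker NID2 (4.13) rose. The laminin receptors ITGA7 (-4.30) and ITGA6 (-1.46) and the laminin chain LAMA1 (-3.32) fell.

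Of 23 matrix proteases and inhibitors outside 1q, 12 rose and 6 fell, with a median of 0.89. ADAMTS12 had 0 counts in all 4 WT libraries and 10.3 and 6.21 CPM in clone 1 and 29.7 and 23.1 CPM in clone 2, at least 127-fold higher than a floor of 3 counts per library. MMP3 (4.67), the urokinase PLAU (4.18) and ADAM12 (2.39) rose, and the tissue plasminogen activator PLAT (-1.75) and the inhibitor TIMP3 (-1.05) fell. In the list of 13 tested regulators and effectors of epithelial to mesenchymal transition, 6 rose and 4 fell. Fibronectin (FN1) rose from 2537 ± 468 CPM (SD, n = 4) to 11107 ± 2093 CPM (SD, n = 4), a change of 2.13, SE 0.16, adjusted p = 2.8e-06, ITGA5, its receptor, by 2.03, SNAI1 by 1.27 and ZEB1 by 0.83. ZEB2, which melanocytes use, fell (-1.37), as did the epithelial splicing factor ESRP1 (-4.81), and vimentin (VIM) was not called (-0.07). Of 5 epithelial markers tested outside 1q, 4 rose and only ESRP1 fell.

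Of 30 targets and components of TGF-beta and YAP signalling, 17 rose and 5 fell, with a median of 0.85. The receptors TGFBR1 (2.31) and TGFBR2 (1.87), SMAD3 (1.56) and LTBP1 (2.67), which stores the ligand in the matrix, rose. The pseudoreceptor BAMBI (-2.64) and ID2 (-1.64), a target of BMP signals, fell. The YAP target CYR61 rose (0.99) and CTGF was not called (0.14). With WT replicates 3 and 4 only, CYR61 was not called (0.57), and with WT replicates 1 and 2 only CTGF was called (0.74).

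Receptors and ligands of the WNT and NOTCH pathways changed in both directions. In the WNT list 14 of 30 rose and 9 fell. Besides WNT5A, the ligands WNT7B (5.17), WNT10A (3.84) and WNT5B (3.18) rose, while the secreted modulator DKK2 (-3.95), the transcription factor LEF1 (-1.83), beta-catenin (CTNNB1, -0.93) and the receptor ROR1 (-1.52) fell. In the NOTCH list, 9 of 25 genes outside 1q rose and 6 fell. NOTCH3 (4.02), the ligand JAG1 (1.40) and the modifier LFNG (1.77) rose. NOTCH2, on the short arm of chromosome 1, rose from 181 ± 31 CPM (SD, n = 4) to 365 ± 55.2 CPM (SD, n = 4), a change of 1.01, SE 0.14, adjusted p = 0.00014, while NOTCH1 (-0.76), HES6 (-2.42) and DLL3 (-1.33) fell. The target HES1 had -0.02 and HEY1 -0.14, neither called.

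Of 28 feedback and output genes of MAPK signalling, 15 rose and 7 fell, with a median of 0.45. The phosphatases DUSP5 (2.16) and DUSP6 (1.09), IER3 (1.91) and LIF rose, and EPHA4 (-2.71), FOS (-2.15) and DUSP2 (-1.31) fell. DUSP2 was not called without clone 2 (-0.97) or with WT replicates 1 and 2 only (-1.01). Of 26 genes of the BCL2 family and of death receptors, 11 rose and 5 fell. The TRAIL ligand TNFSF10 (2.69), its receptor TNFRSF10A (2.49) and FAS (2.15) rose, and the survival factor BCL2 fell (-1.88).

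Most cell cycle genes were not called. Of 41 replication genes 5 rose and 11 fell, and of 39 mitosis genes 6 rose and 4 fell, with medians of -0.11 and -0.05. The 4 largest called changes were those of E2F2 (-1.14), CCNE2 (-0.80), CHAF1B (-0.72) and PRIM1 (0.68) among replication genes, and of CKAP2L (0.84), INCENP (-0.54), ANLN (0.51) and PTTG1 (-0.47) among mitosis genes. MKI67, the proliferation marker, was not called at -0.01 (adjusted p = 0.97). Of 13 targets of p53, 2 rose and 5 fell. CDKN1A, the inhibitor p21, had 10.7, 16.6, 14.6 and 27.9 CPM in the WT libraries, 45.9 and 81.1 in clone 1, and 62.7 and 111 in clone 2, a change of 2.10 (SE 0.32, adjusted p = 0.0003). All 4 loss libraries lay above WT for CDKN1A. TNFRSF10B rose (0.67), and FDXR (-0.86), CCNG1 (-0.82) and MDM2 (-0.39) fell.

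Among genes of mitochondrial respiration and of cholesterol synthesis, more fell than rose. Of 59 nuclear respiratory chain genes outside 1q, 32 fell and 3 rose, with a median of -0.25. NDUFB1 (-1.01), NDUFS6 (-0.79), NDUFA3 (-0.76) and NDUFA1 (-0.67), all subunits of complex I, had the largest falls of the list. With WT replicates 1 and 2 only, NDUFA1 was not called (-0.39). Of 21 cholesterol synthesis genes outside 1q, 12 fell and 1 rose, with a median of -0.52. The enzymes SC5D (-1.01), LSS (-0.88) and TM7SF2 (-0.82) were among those that fell. TM7SF2 was not called under 5 of the 21 other settings tried, among them without clone 1 (-0.60) and with WT replicates 1 and 2 only (-0.67). Of 21 genes of the unfolded protein response 12 rose and 2 fell, with a median of 0.32: DNAJB9 (1.13), SEC24D (0.90), PDIA4 (0.75) and XBP1 (0.67) had the largest rises.

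Markers of other cell types were measured beside these lists. The summed level of 13 fibroblast markers was 59.9 to 73.3 CPM in WT, 180 to 198.0 in clone 1 and 293 to 343 in clone 2, of which COL1A1 gave the largest share in the clones, and of the 10 tested 6 rose and 1 fell. The sum of 13 immune markers went from 6.19 to 13.03 CPM in WT to 211 to 244 in the clones, nearly all of it LAPTM5 (218 and 209.5 CPM in clone 1 and 241 and 224 in clone 2), with FCGR3A and MS4A1 at 0 in all 8 libraries and PTPRC at 0 in 3 of the 4 1q-loss libraries. Of the 3 immune markers tested outside 1q, LAPTM5 and CD3D rose and LYZ fell. CD3D had 0.101, 0.0433, 0.0917 and 0 CPM in the WT libraries, 0.855 and 0.77 in clone 1, and 1.94 and 1.32 in clone 2. The 8 endothelial markers summed to 2.89 to 6.47 CPM in WT and 30.1 to 46.1 in the clones, with EMCN and ERG at 0. Epithelial markers summed to 90.7 to 118 CPM in WT and 173 to 217 in the clones, mostly KRT18, with GRHL2 at 0. The melanocyte list summed to 4464 to 6915 CPM in WT, 821 to 959 in clone 1 and 554 to 605 in clone 2. The part of other cell types in the changes above was not tested.

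The largest increases outside 1q, among protein-coding genes with a mean of at least 5 CPM, were of genes at or near 0 in WT cells. FPR2, a formyl peptide receptor that senses bacterial peptides, had 0 counts in all 4 WT libraries, 51.5 and 52.9 CPM in clone 1 and 96.1 and 119.8 CPM in clone 2, at least 587-fold higher. COLEC10, a collectin, also at 0 in WT, had 29.5 and 21.7 CPM in clone 1 and 58.4 and 51.9 CPM in clone 2, at least 296-fold higher. TNFRSF11B (osteoprotegerin), a decoy receptor of bone, had 1 count in WT, 112 and 119 CPM in clone 1 and 157 and 166 CPM in clone 2, a ratio of 12405 (95% counting interval 2226 to 489954). Each of these genes was detected in both clones, and each was higher in clone 2 by the test.

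HAS1, a hyaluronan synthase, had 2 counts in WT (ratio 3080, 95% counting interval 853 to 25435), SCUBE1 had 1 (ratio 3498, 95% counting interval 628 to 138169) and PTPRN2 had 1 (ratio 1614, 95% counting interval 290 to 63732). THBD, thrombomodulin, had 2 (ratio 1143, 95% counting interval 316 to 9439), and HS3ST3A1, a heparan sulfate sulfotransferase, had 1 (ratio 1306, 95% counting interval 234 to 51590). All 5 were detected in each 1q-loss library, HAS1 at 30.2 and 63 CPM in clone 1 and 64.2 and 111 in clone 2, and HS3ST3A1, the lowest of them, at 7.26 and 3.95 and 25.3 and 20.6 CPM. The tetraspanin TSPAN18 rose from 0.112 ± 0.038 CPM (SD, n = 4) to 202 ± 28.3 CPM (SD, n = 4), a change of 10.73, SE 0.19, adjusted p = 2.9e-10, and C3, the central complement component, from 0.239 ± 0.178 CPM (SD, n = 4) to 284 ± 165 CPM (SD, n = 4), a change of 10.19, SE 0.69, adjusted p = 1.3e-06. Counting intervals here cover counting error only.

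Some of these genes are neighbours. FPR2 (chr19:51752026-51770526) lies within the tabled span of FPR1 (8.71), so reads may be shared between them, and HAS1 is next to FPR1, while the 11 other tested genes around them ran from -0.27 to 0.94. COLEC10 lies between TNFRSF11B and MAL2, a membrane traffic protein with 3 counts in WT and 3.8 and 1.97 CPM in clone 1 and 40.3 and 37.5 CPM in clone 2. CXCL8, CXCL1 and CXCL3 are neighbours on chromosome 4, and IL1A and IL1B on chromosome 2, where the next gene, CKAP2L, rose by 0.84.

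Beside TYR and PMEL, the largest decreases outside 1q by the same rule, with Y-linked genes left out, were those of UTS2, WFDC1, PKNOX2 and CELF2. UTS2, the peptide urotensin 2 (chr1:7843083-7853512, on 1p, overlapping PER3), had 16 to 30.4 CPM in WT and 0 counts in all 4 1q-loss libraries, at least 164-fold lower. WFDC1, a secreted protease inhibitor, had 1438 counts in WT and 1 in the clones (ratio 1464, 95% counting interval 263 to 57835). PKNOX2, a homeodomain factor (-6.19), and CELF2, an RNA-binding splicing factor (-6.10), fell to at most 0.481 and 1.44 CPM. UTS2 was also at 0 in some libraries of other clones, with 0 to 33.2 CPM in 7p-loss and 1.41 to 147 CPM in 8q-loss libraries.

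Of the 7167 genes called outside 1q, 4863 (67.9%) were also called in the same direction against 7p-loss and 16 in the opposite one. Against 8q-loss, 4788 (66.8%) were called in the same direction and 18 in the opposite one, and 3906 were called in the same direction against both. These comparisons share the 1q-loss libraries with the WT comparison, so the counts do not give independent support. WNT5A had 0 to 33 CPM in 7p-loss and 0 to 0.166 CPM in 8q-loss libraries, all below the lowest 1q-loss library. C3 had 0 to 0.146 CPM in 7p-loss and 0.0831 to 0.695 CPM in 8q-loss libraries.

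The 2 clones resembled each other more than either resembled WT. With separate controls, clone 1 against WT replicates 1 and 2 and clone 2 against WT replicates 3 and 4, 14519 genes outside 1q were tested in both fits (43.2% and 38.4% of all genes were called in each). Clone 1 had 6128 calls and clone 2 had 5430, of which 4221 were called in the same direction in both, 68.9% of the calls of clone 1 and 77.7% of those of clone 2, and 22 in opposite directions. Across these genes, which are not independent replicates, the fold changes of the clones had a Pearson correlation of 0.89, a Spearman correlation of 0.80 and a slope of 0.97. In 1 fit with all 4 WT libraries, 43.7% of genes were called in clone 1 and 46.8% in clone 2. In both clones 22 of the 25 melanocyte genes fell and 17 of 25 dedifferentiation, 14 of 18 cytokine and 24 of 35 interferon-stimulated genes rose with their own controls. By the same measure, 1983 of all 14710 genes outside 1q fell in both clones and 2235 rose.

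**Figure D3:**
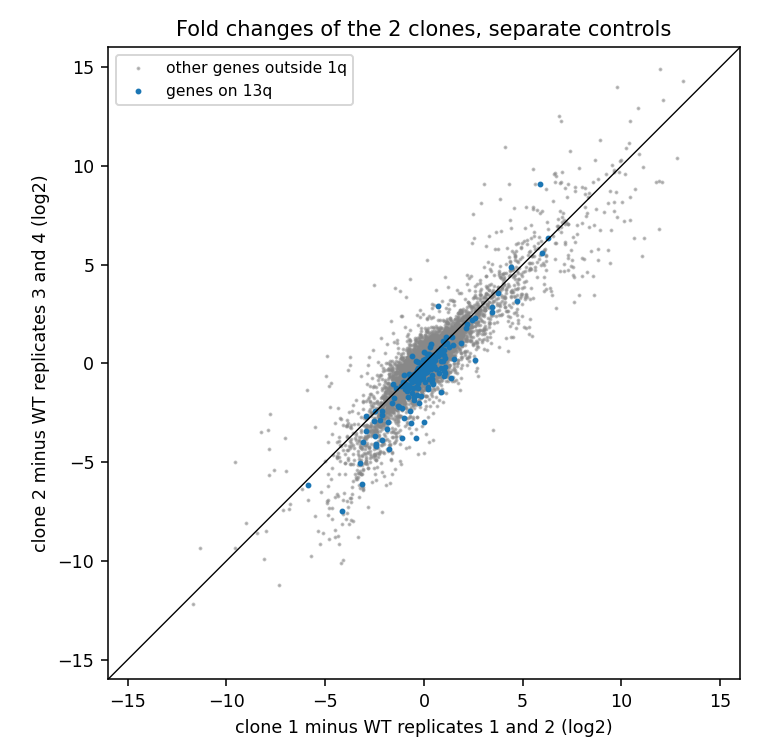
Log2 fold change of clone 2 against WT replicates 3 and 4 (vertical) and of clone 1 against WT replicates 1 and 2 (horizontal), 1 point per gene outside 1q apart from Y-linked genes, with genes on 13q in blue and the line of equality in black. Points follow the line over the whole range (Pearson 0.89), and most 13q genes lie below it.

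Tested directly, 744 genes differed between the clones (4.84% of 15387), 296 higher in clone 2 (1.92%) and 448 lower (2.91%), 453 of them by at least 1 on the log2 scale. Without 1 of the 4 1q-loss libraries, 328 to 446 genes were called, without a filter on low counts 1417, and with a replicate block 1765. A cluster of these was on 13q, where 65 of 286 genes differed (22.7%, against 4.50% elsewhere), 64 of them lower in clone 2. The median 13q gene lay at -0.36 and -0.41 in the libraries of clone 2, 76.4% of the WT level, and at -0.03 and -0.01 in those of clone 1. In 5 windows along 13q, clone 2 minus clone 1 had medians between -0.42 and -0.37, so the difference ran along the whole arm. No other arm apart from 1q had a mean shift beyond -0.14 to 0.13 in either clone, among 41 arms, and WT libraries ran from -0.07 to 0.06.

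**Figure D4:**
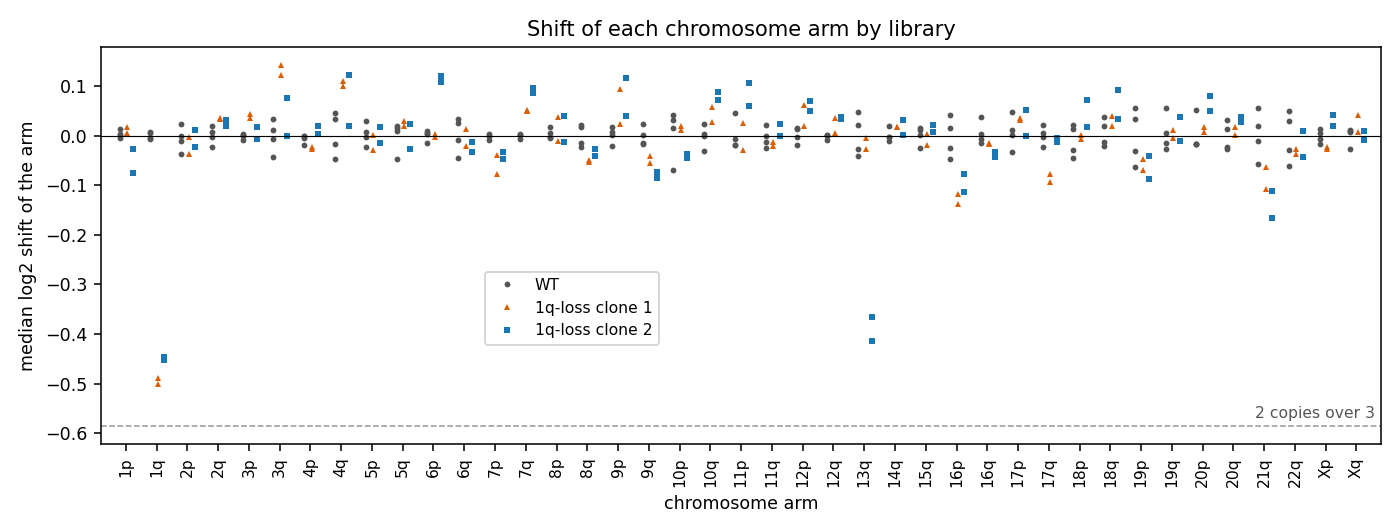
Median log2 shift from WT of the tested genes of each chromosome arm, for each WT library (grey circles), clone 1 library (orange triangles) and clone 2 library (blue squares), with a dashed line at 2 copies over 3. In both clones 1q is low, at -0.45 to -0.50, and 13q is low in clone 2 alone (-0.36 and -0.41).

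Outside 13q and 1q, 657 genes differed between the clones, of which 484 had been called against WT: 405 lay farther from WT in clone 2 and 79 farther in clone 1. Over all 25 melanocyte genes, 13q genes such as DCT included, 10 were lower in clone 2 and 1 was higher. DAPK1, a death-associated kinase, had 30.8, 36.2, 39.6 and 32.6 CPM in the WT libraries, 2.66 and 2.5 in clone 1, and 0.185 and 0.113 in clone 2. ADAM23, an adhesion protein of neural cells, had 64.3, 64.6, 64.5 and 51.9 CPM in the WT libraries, 4.42 and 6.3 in clone 1, and 0.185 and 0.263 in clone 2. CNTN4, a neural adhesion molecule, had 8.82, 7.84, 7.89 and 9.92 CPM in the WT libraries, 10.4 and 12.3 in clone 1, and 0.833 and 0.414 in clone 2. For DAPK1 and ADAM23 both clones were below WT and clone 2 further, while CNTN4 fell in clone 2 alone, with clone 2 minus clone 1 at -4.21 (SE 0.29, adjusted p = 2.4e-05). IGSF11 (-5.26), CNTNAP3B (-4.13) and TYR (-4.12) were also lower in clone 2, TYR with no call once any 1 of the 4 1q-loss libraries was left out (-7.20 to -3.06).

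Among protein-coding genes with a mean of at least 5 CPM, those with the largest rise in clone 2 over clone 1 were NUP210 (5.22), FBLN1 (4.996), AKR1C1 (4.04), S100A9 (3.97), AUTS2 (3.84) and OR51B5 (3.77). NUP210, a nuclear pore protein, had 13.2, 8.66, 10.5 and 10.4 CPM in the WT libraries, 0.475 and 0.241 in clone 1, and 17.6 and 9.67 in clone 2, so it was low in clone 1 and at the WT level in clone 2. FBLN1, a matrix protein, had 2.03, 2.3, 1.61 and 2.02 CPM in the WT libraries, 0.855 and 0.722 in clone 1, and 30.1 and 20.6 in clone 2. It was called higher in the group comparison (2.72), and without clone 2 it was lower (-1.33). In the 3-group fit, 30 genes were called in opposite directions in the 2 clones. Among Y-linked genes, 14 of 16 tested were lower in the 1q-loss group and none was higher.

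The arm that was targeted was low as a whole. The median of 677 tested 1q genes, relative to all other autosomal arms, was -0.49 and -0.50 in the libraries of clone 1 and -0.45 and -0.45 in those of clone 2, a mean of -0.47 (SD 0.027, n = 4). The WT libraries lay between -0.01 and 0.01 (two-sided exact permutation test over libraries, p = 0.0286, the smallest that 4 against 4 libraries allow). This test and the SD treat the 2 libraries of each clone as independent, which they are not. For reference, a change from 3 copies to 2 corresponds to -0.58 on the log2 scale. Of the other arms gained in A2058, 7p lay at -0.05 and 8q at -0.04 in the clones.

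Of the 677 genes of 1q, 404 fell (59.7%), 67 rose (9.90%) and 206 were not called, 134 of these with an estimate below 0 and 72 at 0 or above. So 139 genes, 20.5%, had an estimate that did not fall. Outside 1q, 19.7% of genes lay at or above 0.47, the distance by which the arm had dropped, and 51.3% lay at or above 0. The 95% interval lay wholly above -0.58 for 259 genes, held it for 266 and lay wholly below it for 152. Of the 72 genes not called and at 0 or above, 62 had an interval wholly above -0.58. Choosing genes at 0 or above favours such intervals.

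The 67 genes that rose had a median WT level of 0.571 RPKM (CPM per kilobase of gene model), and those that fell 10.2 RPKM. A gene can pass the filter on low counts through the 1q-loss libraries alone, so this order is partly set by the choice of genes. Outside 1q, the medians were 3.84 RPKM for genes that rose and 6.08 RPKM for those that fell. All 67 had an estimate above 0 in both clones, and in 63 the groups did not overlap (6438 of 7167 among genes called outside 1q). Of the named ones, MPZL1 and DCAF6 were not called without clone 2 (0.20 and 0.28), and TAF1A was not called without clone 1 (0.37). Among windows of 10 Mb with at least 20 genes, the share at 0 or above ran from 12.8% of 39 genes at 210 to 220 Mb (median -0.59) to 26.5% of 83 genes at 200 to 210 Mb (median -0.41), and the highest median, -0.21, was at 180 to 190 Mb.

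**Figure D5:**
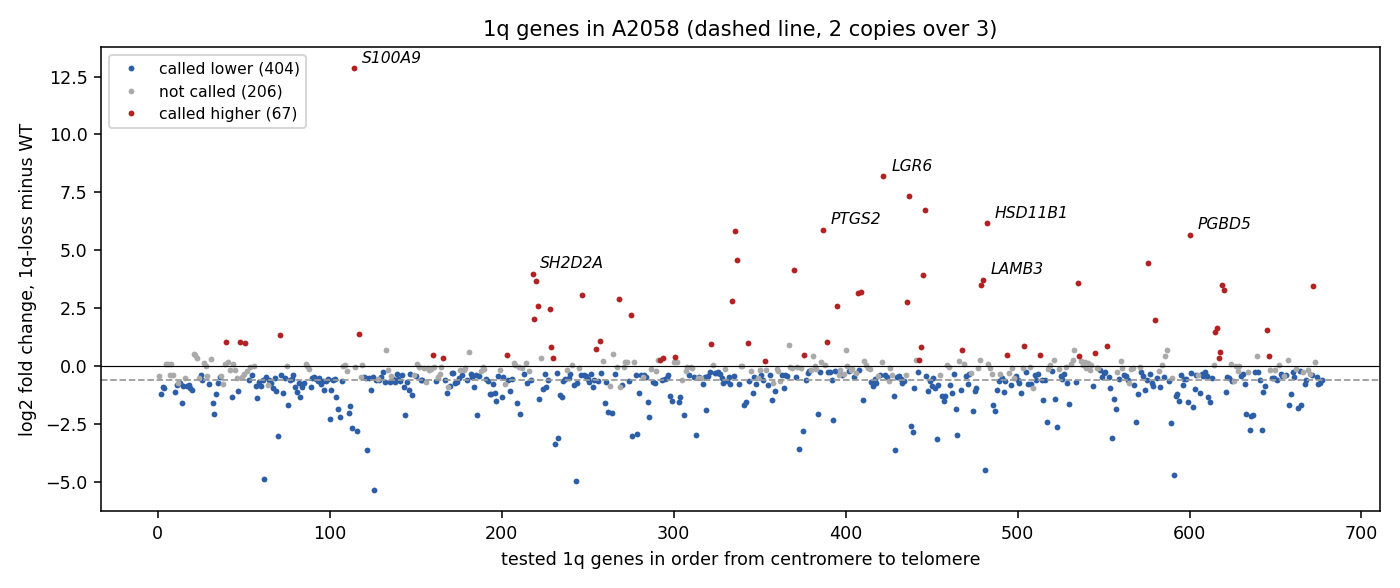
Log2 fold change (1q-loss minus WT) of the 677 tested 1q genes in their order from centromere to telomere, 1 point per gene, blue where called lower (404), grey where not called (206) and red where called higher (67), with the named risers labelled and a dashed line at 2 copies over 3. Most genes lie in a band below 0, and the risers are spread along the arm.

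Of 28 genes of the lists used here that were tested on 1q, 6 rose and 15 fell. Described next are 2 of the 6, PTGS2 and LAMB3, and NLRP3, which is in no list. PTGS2 (chr1:186671791-186680427), cyclooxygenase 2, an inflammatory enzyme, had 6.75, 8.05, 6.24 and 8.16 CPM in the WT libraries, 143 and 354 in clone 1, and 434 and 806 in clone 2. NLRP3 (chr1:247416156-247449108), the sensor of the inflammasome that matures interleukin 1, had 1.88, 2.73, 3.39 and 2.86 CPM in the WT libraries, 23.9 and 30.1 in clone 1, and 28.6 and 37.5 in clone 2. LAMB3 (chr1:209614870-209652466), the beta chain of laminin 332, had 23.9, 33.3, 76.9 and 31.8 CPM in the WT libraries, 487 and 555 in clone 1, and 498 and 639 in clone 2. All 3 were higher in every 1q-loss library than in any WT library, at 5.89 (SE 0.49, adjusted p = 5.0e-06), 3.46 (SE 0.19, adjusted p = 3.8e-07) and 3.71 (SE 0.33, adjusted p = 7.3e-06). LAMC1, a laminin gamma chain also on 1q, fell (-0.44).

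S100A9 (chr1:153357854-153361027), a calcium-binding alarmin of myeloid cells, had 0 counts in all WT libraries, 2.04 and 7.84 CPM in clone 1 and 61.1 and 93.8 CPM in clone 2, at least 302-fold higher. The bound is for the mean of the 1q-loss libraries, most of it from clone 2. With a replicate block S100A9 was not called. Among its neighbours in the S100 cluster, S100A4 (-2.81) and S100A1 (-3.62) fell by more than the arm, S100A16 (-0.47) and S100A13 (-0.54) fell with it, S100A3 rose (1.38), and S100A6 was not called (-0.04). S100A3 lies within the tabled span of S100A4, so reads may be shared, and it was not called with WT replicates 3 and 4 only (1.03) or with 7p-loss and 8q-loss libraries as further controls (0.94). LGR6 (chr1:202193901-202319781), an R-spondin receptor of WNT signalling, had 0.101, 0.173, 0.413 and 0.042 CPM in the WT libraries, 13.2 and 19.3 in clone 1, and 94 and 90.9 in clone 2. HSD11B1 (chr1:209686178-209734950), which activates glucocorticoids, had 0.304, 0.476, 1.24 and 0.294 CPM in the WT libraries, 57.5 and 62.9 in clone 1, and 20.3 and 25.9 in clone 2. LGR6 was higher in clone 2 and HSD11B1 in clone 1, at 2.51 and -1.38 for clone 2 minus clone 1.

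The other named risers were PGBD5 (5.67, SE 0.30, adjusted p = 2.9e-07), a transposase-derived gene, SH2D2A (3.97, SE 0.29, adjusted p = 2.1e-06), an adaptor of T cells, PLXNA2 (3.48, SE 0.48, adjusted p = 0.00016), a semaphorin receptor, IGFN1 (3.21, SE 0.30, adjusted p = 1.1e-05), KIF21B (3.17, SE 0.24, adjusted p = 2.5e-06), a kinesin, and ADORA1 (2.78, SE 0.22, adjusted p = 3.8e-06), an adenosine receptor. Reads of SH2D2A can be shared with a gene that it overlaps in the tables. All of the 12 largest increases were also called against both 7p-loss and 8q-loss clones.

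Of the 72 genes not called at 0 or above, the 8 protein-coding ones with the smallest SE were looked at. IRF2BP2 (chr1:234604269-234609525), a transcriptional corepressor, had 99.6, 100.03, 93.9 and 103 CPM in the WT libraries, 101 and 105 in clone 1, and 99 and 110.2 in clone 2. NCSTN (chr1:160343272-160358952), nicastrin, a subunit of gamma-secretase, had 216, 213, 218 and 217 CPM in the WT libraries, 201 and 223 in clone 1, and 236 and 225 in clone 2. SHC1 (chr1:154962298-154974395), an adaptor of receptor kinases, had 247, 270.4, 274 and 276 CPM in the WT libraries, 263 and 276 in clone 1, and 275 and 308 in clone 2. The groups overlapped for each, the changes were 0.07, 0.03 and 0.07, and their 95% intervals (-0.06 to 0.20, -0.10 to 0.17 and -0.08 to 0.22) all lay above -0.47. All 8 genes were chosen for an estimate of 0 or above and a small SE, so this place of their intervals follows from the choice. NCSTN overlaps COPA in the tables and SHC1 overlaps PYGO2.

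Intervals above -0.47 were also found for MIA3 (-0.11 to 0.19), which loads collagen into transport vesicles, ATP1B1 (0.02 to 0.33), a subunit of the sodium pump that was called higher without WT replicate 4 (0.23), and ELK4 (-0.10 to 0.22), ARID4B (-0.16 to 0.18) and RASAL2 (-0.16 to 0.18). ATF6 (chr1:161766294-161964070), a sensor of the unfolded protein response, was not called (-0.03, SE 0.06, adjusted p = 0.72), at 119.9 ± 3.33 CPM (SD, n = 4) in WT and 118 ± 5.48 CPM (SD, n = 4) in the clones. Other subunits of gamma-secretase on 1q fell, PSEN2 by 1.19 and APH1A by 0.50 on the log2 scale.

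Among genes of the arm with known roles in cancer that fell was MDM4, an inhibitor of p53, which had 30.5, 28.6, 30.1 and 31.2 CPM in the WT libraries, 19 and 18 in clone 1, and 20.1 and 19.4 in clone 2 (-0.65, SE 0.07, adjusted p = 4.5e-05). UCK2, a nucleoside kinase, had 125, 124, 122 and 134 CPM in the WT libraries, 91.4 and 92.8 in clone 1, and 89.5 and 92.6 in clone 2 (-0.46, SE 0.05, adjusted p = 5.5e-05). The survival factor MCL1 fell by less (-0.37, SE 0.09, adjusted p = 0.0075), with 189.9 and 230.2 CPM in clone 1 and 193 and 255 CPM in clone 2, against 275 to 289 CPM in WT. MYC, on 8q, which was not targeted here, fell (-0.48, SE 0.09, adjusted p = 0.0015). It was not called when all 18 A2058 libraries shared 1 spread (-0.48), or with 7p-loss and 8q-loss libraries as further controls (-0.37). Further falls on 1q were larger than the arm's, among them NES, nestin, from 808 ± 112 CPM (SD, n = 4) to 193 ± 34.7 CPM (SD, n = 4), a change of -2.07, SE 0.14, adjusted p = 1.2e-06, and EGLN1, a prolyl hydroxylase of the hypoxia response (-1.35, SE 0.07, adjusted p = 2.3e-07).

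Whether the same genes escape a fall elsewhere was asked in AGS and MCF10A, fitted with A2058 in 1 model of 26 libraries. The 67 genes that rose in A2058 had a median change of -0.32 in AGS and -0.31 in MCF10A, and 16 and 9 of them fell there (of all genes 15.6% and 1.54% were called in these lines, and 6.59% and 1.34% fell), while 3 and 0 rose. Of the 404 1q genes that fell in A2058, 216 fell in AGS and 192 in MCF10A. Over all 677 tested 1q genes the medians were -0.45 in AGS and -0.49 in MCF10A. The difference of the changes was called for 38 of the 67 against AGS and for 38 against MCF10A, all higher in A2058, a direction fixed by choosing genes that rose in A2058. Over all 1q genes in this fit, 222 of 863 differed from AGS (25.7%, against 23.2% outside 1q) and 159 from MCF10A (18.4%, against 14.9%). Of these, 118 lay above AGS and 104 below, and 86 above MCF10A and 73 below.

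For 18 genes the estimate was 0 or above in A2058, the gene fell in both other lines, and both differences were called. They were ARID4B, ATP1B1, BLZF1, CREG1, DCAF6, EDEM3, EFCAB2, ELK4, IKBKE, MEF2D, MIA3, MPZL1, NCSTN, ODR4, PCNX2, RRNAD1, SIPA1L2 and TAF1A. SIPA1L2, a regulator of the GTPase RAP, rose from 42 ± 6.07 CPM (SD, n = 4) to 114 ± 8.58 CPM (SD, n = 4) in A2058 (1.45), against -1.04 in AGS and -0.91 in MCF10A. EDEM3, which trims misfolded glycoproteins for disposal, had 0.48, -1.46 and -0.44. IKBKE, a kinase of the interferon and NF-kB pathways, had 0.69, -0.63 and -0.68. The A2058 change exceeded that of AGS by 2.49 (SE 0.27, adjusted p = 1.6e-07) for SIPA1L2, 1.94 (SE 0.13, adjusted p = 6.7e-11) for EDEM3 and 1.32 (SE 0.23, adjusted p = 0.00014) for IKBKE. For MDM4 the changes were -0.65, -0.71 and -0.71, and neither difference was called.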

How the data were processed

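RNA was poly(A)-selected, per the labels' protocols. The deposited values are read counts per gene, which the authors made with HISAT2 2.0.5 and featureCounts 1.5.0-p3 on hg38, per the submitters' processing notes; whether counting used strand is not given in the sources used here. Tables of 38 libraries were used, each with 58735 genes, and the labels give no batch. The 8 libraries of the main comparison held 19595543 to 27015317 counts.

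From these counts, edgeR 4.0.16 (R 4.3.3) was run with TMM scaling, its filter on low counts (minimum 10 in a library, 15 in total) and the quasi-likelihood test, and p-values were adjusted over all genes tested. CPM uses the TMM scaling. The main fit holds 8 libraries, the fit with 7p-loss and 8q-loss 18, and the fit of 3 lines 26, where a difference between lines is an interaction term; 7p-loss and 8q-loss were compared in the fit of 18. Genes of 1q are those of chromosome 1 whose midpoint lies beyond the end of 1p. An arm's shift is the median over its genes of a library's log2 CPM (prior count 2) minus the WT mean, relative to other arms. On simulated data with 200 changed genes, 43 of 50 genes changed by -1 and 31 of 50 changed by -0.58 were called, and 15 of 14540 unchanged ones. The simulated libraries were independent and had the spread of the WT libraries. These rates therefore do not cover differences between clones or the larger number of changed genes seen here. Alternatives tried were DESeq2 1.42.0, no filter, other scalings, other controls, a replicate block, the libraries of each clone summed, and leaving out libraries or clones.

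Genes named by rule are the 4 members of each list with the largest called change in both clones at a mean of at least 1 CPM, the 12 largest increases and decreases outside 1q and the 12 largest increases on 1q at a mean of at least 5 CPM, the 8 most precise 1q genes not called, and the 6 largest rises and falls between clones at a mean of at least 5 CPM, all protein-coding outside the lists, besides genes fixed by name; 6 Y-linked genes were left out, and some genes the rule names are not reported here. Other list members, and the neighbours, were named for their known role after their values were seen. The members and lists were chosen with earlier results of these data known. Whether replicate numbers pair the samples is not settled by these data, and the main fit has no block for them. Correlations of same-numbered deviations were 0.06 and 0.10 between WT and the clones and 0.23 between clone 1 and clone 2.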

Additional observations from a re-analysis of the deposited data

Results flagged for a closer look

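Among 552 groups of 4 libraries (the WT group and the 1q-loss group of each named gene), 38 held 1 library far from the other 3 by Dixon's test, and chance flags about 1 in 20 groups. In 9 of them the other 3 libraries were all at 0, where a single library with counts always stands apart and that chance rate does not hold. The library of WT replicate 1 stood apart for ADORA1 (1.57 CPM), HAS1 (0.101 CPM), MAL2 (0 CPM), SEMA6A (45 CPM) and TNFRSF11B (0.0507 CPM). The library of WT replicate 2 stood apart for FPR1 (0.173 CPM), IRF7 (4.42 CPM) and TAF1A (18 CPM). The library of WT replicate 3 stood apart for C3 (0.505 CPM), CDK2 (325 CPM), DCT (824 CPM), IFI27 (0.0459 CPM), LAPTM5 (11.4 CPM), LTBP1 (25 CPM), NGFR (72.7 CPM), PLAU (1.93 CPM), STC2 (9.45 CPM) and WNT5B (4.36 CPM). The library of WT replicate 4 stood apart for ADAM23 (51.9 CPM), DCAF6 (23.9 CPM), DUSP2 (12 CPM), HS3ST3A1 (0.042 CPM), NLRC5 (15.5 CPM), PCDHB5 (2.19 CPM), PTPRN2 (0.042 CPM), SCUBE1 (0.042 CPM) and THBD (0.0841 CPM). The library of clone 1 replicate 1 stood apart for POLR2F (87.3 CPM), S100A3 (3.28 CPM), TRPM1 (0.0475 CPM) and WNT5B (24.9 CPM). The library of clone 1 replicate 2 stood apart for MYC (33.1 CPM). The library of clone 2 replicate 1 stood apart for ANLN (707 CPM), COL12A1 (447 CPM), DCAF6 (39.96 CPM), FDXR (5.97 CPM) and WFDC1 (0.0463 CPM). The library of clone 2 replicate 2 stood apart for PLXNC1 (2.6 CPM).

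The change of a 1q gene differed between A2058 and another line in 73 of 100 tests of the named 1q genes, by the interaction term (adjusted p under 0.05). Many of the named genes were chosen for such a difference or for their rise in A2058, so the count restates that choice, and over all 863 genes of 1q the difference was called for 25.7% against AGS and 18.4% against MCF10A. S100A9 had 0 counts in A2058 WT, so its fitted values are no bound. Against AGS, the log2 change in A2058 was higher for S100A9 (13.70), PTGS2 (7.06), HSD11B1 (6.05), KIF21B (5.57), LGR6 (5.19), SH2D2A (4.63), PLXNA2 (4.42), LAMB3 (4.27), IGFN1 (3.63), ADORA1 (3.00), SIPA1L2 (2.49), EDEM3 (1.94) and ATP1B1 (1.77). It was also higher than in AGS for TAF1A (1.38), IKBKE (1.32), PCNX2 (1.18), IRF2BP2 (1.11), CREG1 (1.09), RRNAD1 (0.98), SHC1 (0.98), ATF6 (0.97), EFCAB2 (0.95), MEF2D (0.94), DCAF6 (0.85), BLZF1 (0.80) and ODR4 (0.80). It was also higher than in AGS for ARID4B (0.76), MIA3 (0.74), ELK4 (0.67), MPZL1 (0.57) and NCSTN (0.52). Against AGS, the log2 change in A2058 was lower for S100A4 (-5.33), S100A1 (-2.38), NES (-2.08), PSEN2 (-0.92) and EGLN1 (-0.79). Against MCF10A, the log2 change in A2058 was higher for S100A9 (14.05), LGR6 (7.82), IGFN1 (7.10), HSD11B1 (6.67), PGBD5 (6.35), PTGS2 (5.81), SH2D2A (4.35), KIF21B (3.89), PLXNA2 (3.73), ADORA1 (3.68), LAMB3 (3.48), NLRP3 (2.99) and SIPA1L2 (2.36). It was also higher than in MCF10A for IKBKE (1.37), TAF1A (1.21), EFCAB2 (1.17), PCNX2 (1.08), EDEM3 (0.92), CREG1 (0.92), MEF2D (0.91), ODR4 (0.86), RRNAD1 (0.77), ATP1B1 (0.76), DCAF6 (0.75), MIA3 (0.69) and ARID4B (0.69). It was also higher than in MCF10A for MPZL1 (0.66), ELK4 (0.66), BLZF1 (0.62), IRF2BP2 (0.42), NCSTN (0.40) and ATF6 (0.40). Against MCF10A, the log2 change in A2058 was lower for S100A1 (-3.85), S100A4 (-2.27), NES (-1.50), EGLN1 (-0.84) and PSEN2 (-0.60).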

How the results depend on the processing

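Counts of called genes were within 1.5 times of those reported under every other setting run, apart from those given next. The 1q median kept its direction with WT replicates 1 and 2 only (-0.46), with WT replicates 3 and 4 only (-0.47), without clone 1 (-0.44) and without clone 2 (-0.49), where an exact permutation test cannot go below p = 0.0667. Without a filter on low counts it was -0.26. Between the clones, 1417 genes were called without a filter and, in place of 744, 328 to 446 when 1 library was left out. Against 7p-loss, 4168 genes were called without clone 2, in place of 6424. Leaving out 1 library gave 6920 to 7338 genes called against WT, 6470 to 6880 outside 1q and 62 to 70 called higher on 1q. With the libraries of each clone summed, so that each clone counted once, 6440, 6008 and 59 were called, and AUTS2, DCAF6, HLA-DRB1, MC1R and RAB27A lost their call. DESeq2 called 7786, 7312 and 68, and a fit of the 18 A2058 libraries with 1 shared spread 5965, 5559 and 46. Scaling on genes outside 1q moved the share of higher calls there from 53.4% to 51.1%.

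Of 238 named genes called against WT, 198 were called under all 21 settings tried. Those not called under at least 1 setting were AKR1C1, ANLN, AUTS2, B2M, CA9, CKAP2L, CNTNAP3B, COL3A1, CYR61, DCAF6, DUSP2, FBLN1, HLA-DRA, HLA-DRB1, HLA-F, JUN, LAMC1, LYZ, MAGEC2, MC1R, MCL1, MPZL1, MYC, NDUFA1, NLRC5, NUPR1, OR51B5, PCDHGB3, PCNX2, PLXNC1, POLR2F, PTTG1, RAB27A, S100A3, S100A9, SOX9, TAF1A, TAP1, TM7SF2 and TNFAIP3. Without clone 2, FBLN1 (-1.33), HLA-DRA (-0.45) and HLA-DRB1 (-0.88) changed sign. With 7p-loss and 8q-loss libraries as further controls, so did ELK4 (-0.11), CIITA (-0.87), FOSL1 (-0.00216) and TNC (-0.0503), none of them called against WT. The cause was not tested.

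The replicate block called 6315 genes against WT, 5884 outside 1q and 56 higher on 1q, and 1765 between the clones. It ended the call of 16 named genes and added 6. Whether same-numbered samples share a culture or day is not known, since the labels do not say so. Counts of 0 to 3 reads limit the folds of genes absent from 1 group.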

Other observations

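Genes that guide neural crest cells and axons changed in both directions. Of 39 tested outside 1q, 18 rose and 13 fell, with a median of -0.07 on the log2 scale, 1q-loss minus WT. EPHB2, an ephrin receptor, had 0.101, 0.0433, 0.0917 and 0 CPM in the WT libraries, 8.26 and 7.27 in clone 1, and 34.7 and 36.2 in clone 2, and UNC5B, a netrin receptor, had 0.203, 0.173, 0.321 and 0.0841 CPM in the WT libraries, 20.1 and 15.9 in clone 1, and 20.4 and 15.1 in clone 2. Both were near 0 in WT and high in every 1q-loss library (8.44 and 6.49). The receptors ROBO2 (-4.29) and PLXNC1 (-3.02), the guidance cue SEMA6A (-3.84) and the transcription factor SOX6 (-3.69) fell. Of 16 genes of IGF and insulin signalling 9 rose and 4 fell. The binding protein IGFBP3 rose (3.42), as did the protease PAPPA (3.28), which cleaves such proteins, and the RNA-binding protein IGF2BP1 (4.27), while IGFBP2 (-3.93), IGFBP5 (-2.24), the adaptor IRS2 (-2.71) and the receptor IGF1R (-1.42) fell.

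Among 27 targets of ATF4, 11 rose and 6 fell, with STC2, a secreted glycoprotein, at 5.17 and NUPR1 at -2.08. Of 32 hypoxia and glycolysis genes outside 1q, 12 rose and 7 fell, among them CA9 (2.40, not called without WT replicate 1, 2.25, or without clone 2 replicate 2, 1.92), NDRG1 (2.15) and EGLN3 (2.04) upwards and ENO2 (-1.46) and MXI1 (-1.65) downwards. Of 75 cytosolic ribosomal protein genes 15 fell and 1 rose, and of 15 mitochondrially encoded genes 4 fell and none rose. Of 31 HOX genes 6 rose and 6 fell (19.4% each, against 26% and 22.7% of all genes outside 1q), and of 33 clustered protocadherins 4 rose (12.1%) and 12 fell (36.4%), with PCDHB5 at -4.71 and PCDHGB3 at 1.95. With 7p-loss and 8q-loss libraries as further controls, PCDHGB3 was at 0.62 and not called. Of 19 cancer-testis antigen genes, 9 rose and 3 fell, from MAGEA4 at 3.50 to MAGEC2 at -6.94. Among endothelial markers, PECAM1 (5.45), TIE1 (4.02) and CDH5 (3.30) rose and KDR fell (-3.46).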
